A study of Mus musculus with 142 samples.

Results

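The H3K27 demethylases Kdm6a and Kdm6b and the H3K36 methyltransferases Nsd1, Nsd2, Nsd3, Setd2 and Ash1l were followed across oligodendrocyte precursor cell (OPC) cultures from mouse brain. These 7 genes were taken by name, with earlier results of these data known, and the rule that chose them uses no measured value. They were 7 of the 54127 genes to which transcripts could be assigned, and all 7 had enough reads to be tested among 23003 genes.

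Polycomb repressive complex 2 (PRC2) silences genes by trimethylating lysine 27 of histone H3, through its catalytic subunit EZH2 or EZH1. KDM6A (UTX) and KDM6B (JMJD3) remove the methyl groups from lysine 27, and KDM6A acts as part of the complexes built around the H3K4 methyltransferases KMT2C and KMT2D. NSD1, NSD2, NSD3 and ASH1L add mono- and dimethyl groups to lysine 36 of the same histone tail, SETD2 adds the trimethyl mark along transcribed genes, and a tail methylated at lysine 36 is a poor substrate for PRC2. The K27M form of histone H3.3, which most diffuse midline gliomas carry, lowers H3K27 trimethylation by interfering with PRC2.

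OPC lines were grown from pooled mouse litters aged P5 to P7, by panning for PDGFRa. K27M lines carried a knock-in of the mutation at H3f3a, kept silent by a stop cassette until Cre removed it, and Cre was driven by the human GFAP promoter, which is active in neural stem and progenitor cells before birth and so reaches several lineages beside OPCs. Controls were littermates, which the study's single-cell methods describe as lacking Cre and expressing H3f3a from 1 allele only. If this holds for the cultures, K27M lines differed from controls in Cre and in active H3f3a alleles as well as in the mutation. The share of each in the differences below was not tested. Each of brainstem and dorsal telencephalon gave 3 K27M and 3 control lines, from cultures numbered 38, 41 and 42. The 12 lines were sampled in proliferation medium (day 0) and after 1, 2 and 5 days in differentiation medium with forskolin, CNTF and thyroid hormone. The libraries fall into 16 groups of 9 wells, except for K27M brainstem at day 2 and control brainstem at day 1, which have 8. Wells of a line share their cells, so wells were summed per line and day and the 3 cultures were the replicates of a group (48 sums in all). Telencephalon lines were sequenced in batches 1 and 2 and brainstem lines in batches 3 and 4, so region and batch cannot be told apart. Passage was uneven as well, at 3 to 8 in control brainstem, 1 to 6 in K27M brainstem and 1 to 4 in control and K27M telencephalon. It also varied between the days of a line.

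The depth of a library, as the sum of its estimated counts, had a median of 46.9 M read pairs and ran between 26.6 M and 84.7 M, apart from 1 well of control brainstem culture 38 at day 5 that reached 455 M. H3f3a itself, the gene that carries the knock-in, stood at 359 to 765 CPM (counts divided by the TMM-scaled library size, median 561) in K27M libraries, against 148 to 545 CPM (median 305) in control libraries. Its level was higher with K27M, with overlap, and gene counts do not show the mutation. In its single-cell data the study treated a rise of this gene with K27M as an artifact of the stop cassette. By its account littermate controls express the gene from 1 allele only. The part of the cassette in the levels given here was not tested. OPC markers (8 genes) summed to 1192 to 5095 CPM and 10 myelin genes to 208 to 72520 CPM, the high end being at day 5. Microglial genes (6) stayed at or under 6.09 CPM in sum and vascular and fibroblast genes (8) at or under 7.99 CPM, while 7 astrocyte genes reached 14390 CPM and 7 neuronal genes 514 CPM. Values of every gene below are means over such mixtures, in which fewer cells of a type and less RNA per cell cannot be told apart.

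The promoters of only 2 members were found in the RefSeq table, and both are shown. Kdm6a is the demethylase that rose by day 5 in all 4 combinations of genotype and region, and Setd2 a methyltransferase that passed the test in none of them. A link between these sequences and those changes was not tested. Each run covers 250 bases before to 50 bases after the transcription start (GRCm38.p6, plus strand), and capitals mark the GC box hexamer GGGCGG or its reverse complement CCGCCC, the letters bound by SP1-type factors.
Kdm6a promoter, chrX:18162325-18162624: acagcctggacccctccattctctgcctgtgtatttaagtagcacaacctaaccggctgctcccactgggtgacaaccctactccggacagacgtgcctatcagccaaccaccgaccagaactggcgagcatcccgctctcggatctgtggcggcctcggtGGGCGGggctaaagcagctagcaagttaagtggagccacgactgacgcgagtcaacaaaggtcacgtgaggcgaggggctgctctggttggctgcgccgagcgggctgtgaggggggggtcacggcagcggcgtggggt
Setd2 promoter, chr9:110532347-110532646: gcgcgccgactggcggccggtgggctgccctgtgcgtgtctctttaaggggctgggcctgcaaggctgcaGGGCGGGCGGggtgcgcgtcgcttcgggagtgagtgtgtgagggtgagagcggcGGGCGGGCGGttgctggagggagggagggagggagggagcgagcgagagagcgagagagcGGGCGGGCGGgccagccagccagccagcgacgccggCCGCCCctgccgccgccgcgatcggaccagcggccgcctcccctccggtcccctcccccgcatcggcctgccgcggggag
The Kdm6a window held 1 match and 21 CpG dinucleotides at 63.0% G and C, and the Setd2 window held 7 matches, some overlapping, and 38 CpG dinucleotides at 77.3% G and C. The hexamer was present on either strand in 35.7% of the 32851 promoters of the same length.

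On GRCm38, Kdm6a lies on chromosome X (18162575 to 18279936), Kdm6b on chromosome 11 (69398508 to 69413675), Nsd1 on chromosome 13 (55209782 to 55318325), Nsd2 on chromosome 5 (33820725 to 33897975), Nsd3 on chromosome 8 (25601601 to 25719667), Setd2 on chromosome 9 (110532597 to 110618633) and Ash1l on chromosome 3 (88950622 to 89079375). Kdm6b is on the minus strand and the others are on the plus strand. All 7 enzymes were expressed at every day, and their order was set by comparing TPM rescaled over protein-coding genes, a per-length level that leaves out the small cytoplasmic RNA that filled 42.0% to 63.3% of the deposited TPM. On this scale Nsd2 averaged 140 TPM over all libraries and Nsd1 averaged 110 TPM. Kdm6a followed at 69.5 TPM and Setd2 at 59.0 TPM, then Nsd3 at 34.3 TPM and Ash1l at 26.8 TPM, and Kdm6b was lowest at 11.9 TPM. The range over libraries was 49.0 to 272 TPM for Nsd2 and 71.5 to 185 TPM for Nsd1, so these neighbours overlapped. Kdm6a (36.04 to 108 TPM) and Setd2 (36.9 to 96.8 TPM) overlapped as well, and so did Nsd3 (15.3 to 65.7 TPM) and Ash1l (17.9 to 61.0 TPM). Kdm6b ran between 3.30 and 48.03 TPM. Levels from here on are CPM, which compare one gene between groups and not genes with each other.

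**Figure D1:**
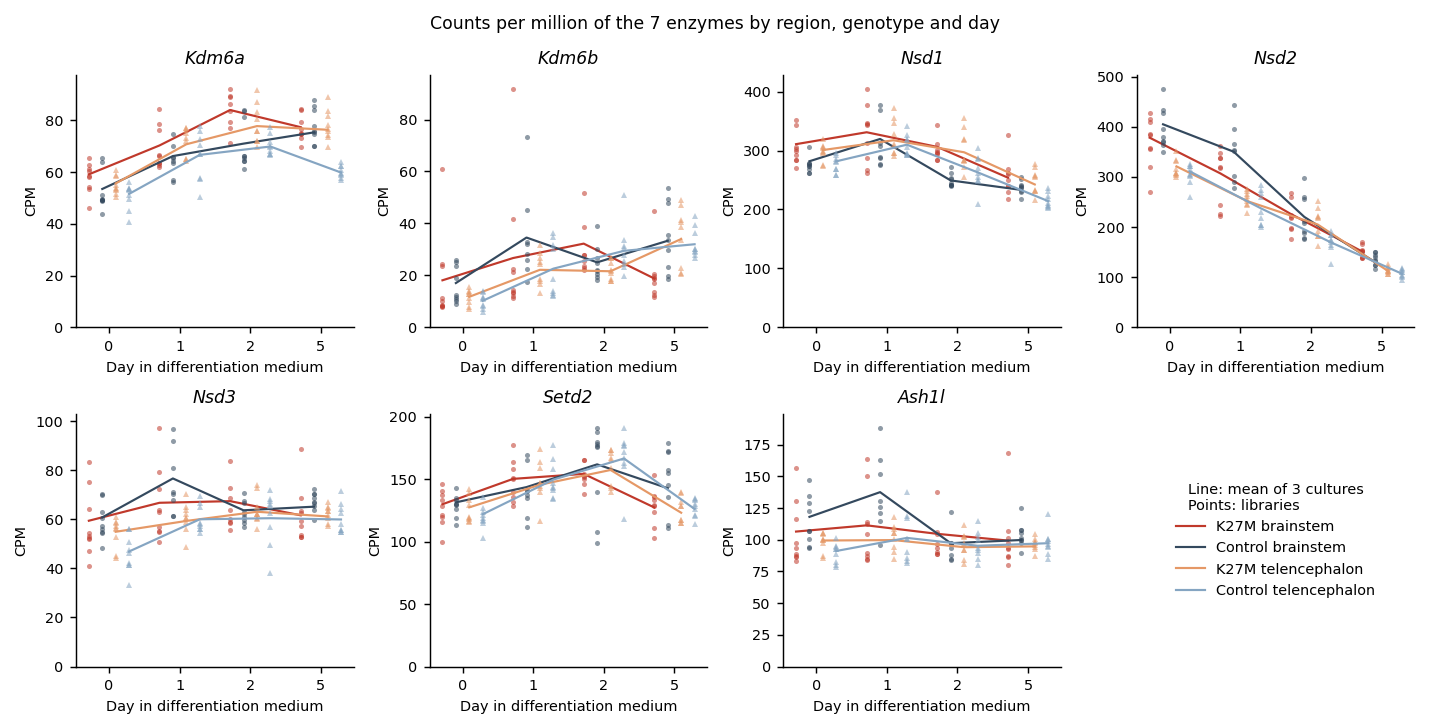
CPM (vertical axis, from 0) of each enzyme by day in differentiation medium (horizontal axis), with a point for every library, colour for genotype and region, and lines through the means of 3 cultures. Nsd2 is lower at each later day in all 4 groups, Kdm6a is higher at day 5 than at day 0, and single wells of Kdm6b, Nsd3 and Ash1l stand far above their group.

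Nsd2, the dimethyltransferase also known as MMSET, was the member with the clearest course during differentiation, and the question put to these data was how the enzymes moved over the days in differentiation medium. In K27M brainstem Nsd2 stood at 139 to 171 CPM (median 152) at day 5, against 271 to 427 CPM (median 384) at day 0. In control brainstem it stood at 116 to 151 CPM (median 135) at day 5, against 350 to 476 CPM (median 381) at day 0. In K27M telencephalon the values were 105 to 126 CPM (median 113) at day 5 and 301 to 352 CPM (median 308) at day 0. In control telencephalon they were 93.6 to 119 CPM (median 110) at day 5 and 259 to 325 CPM (median 306) at day 0. No day 5 library of any group reached the lowest day 0 library of that group. The log2 fold change was -1.31 ± 0.11 (SE, n = 3 cultures in each group) in K27M brainstem and -1.63 ± 0.12 in control brainstem (edgeR quasi-likelihood test, adjusted p = 1.1e-10 and 6.8e-13). It was -1.52 ± 0.11 in K27M telencephalon and -1.54 ± 0.11 in control telencephalon (edgeR, adjusted p = 1.9e-12 and 1.4e-12). The means of 3 cultures went down at each step, with 378, 307, 226 and 152 CPM at days 0, 1, 2 and 5 in K27M brainstem and 405, 350, 220 and 130 CPM in control brainstem. In K27M telencephalon they were 321, 252, 205 and 112 CPM, and in control telencephalon 311, 238, 169 and 107 CPM.

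These day 5 differences stand in a transcriptome that changed widely. Of all genes tested, 55.1% passed in K27M brainstem, 62.0% in control brainstem, 61.2% in K27M telencephalon and 60.1% in control telencephalon (edgeR, adjusted p under 0.05, day 5 against day 0). Of the 7 members, 3 passed in K27M brainstem, 4 in control brainstem, 4 in K27M telencephalon and 5 in control telencephalon. With 7 genes these shares cannot be told from the background, and the number of calls is no result about the members. Markers of cell types moved at the same time: all 10 myelin genes rose in each of the 4 comparisons, with median log2 fold changes of 7.38 to 10.48, and 4 or 5 of the 7 astrocyte genes rose, with medians of 4.70 to 6.16, while 1 astrocyte gene fell in K27M telencephalon. Summed astrocyte genes were at 976 to 2337 CPM in K27M brainstem, 136 to 1756 CPM in control brainstem, 596 to 5316 CPM in K27M telencephalon and 2381 to 14390 CPM in control telencephalon at day 5. Their part in the members' differences was not tested. Genes of the cell cycle moved along with Nsd2: all 16 listed cycling genes fell in each of the 4 comparisons, with a median log2 fold change of -2.86 in K27M brainstem, -3.05 in control brainstem, -3.32 in K27M telencephalon and -4.08 in control telencephalon. Over the 48 sums of a line and day, log2 CPM of Nsd2 and the mean log2 CPM of the 16 genes had a Pearson correlation of 0.93. Within a single day, over its 12 sums, the correlation was 0.29 at day 0, 0.75 at day 1, 0.74 at day 2 and 0.74 at day 5. The link was not particular to cycling genes. Over all 48 sums Nsd2 had a correlation of -0.93 with the myelin genes, 0.88 with the OPC markers and -0.75 with the astrocyte genes. At days 0, 1, 2 and 5 it was 0.13, -0.68, -0.64 and -0.37 for the myelin genes and 0.14, 0.45, 0.70 and 0.49 for the OPC markers. These sums share lines and libraries, and the part of cell division in the fall of Nsd2 was not tested.

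**Figure D2:**
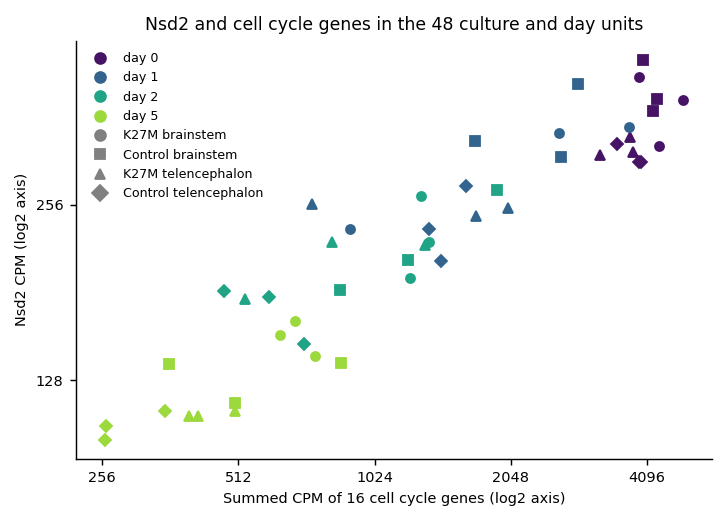
Nsd2 CPM (vertical axis, log2) against the summed CPM of 16 cell cycle genes (horizontal axis, log2) in the 48 sums of a line and day, coloured by day and shaped by genotype and region. Day 0 sums lie at the upper right and day 5 sums at the lower left, with days 1 and 2 between them.

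Nsd1, whose loss of function in people causes Sotos syndrome, fell in the same comparisons but by far less. It stood at 217 to 327 CPM (median 251) at day 5 in K27M brainstem, against 271 to 352 CPM (median 299) at day 0. In control brainstem it stood at 217 to 255 CPM (median 238) at day 5, against 262 to 306 CPM (median 274) at day 0. K27M telencephalon had 216 to 277 CPM (median 254) at day 5 and 274 to 319 CPM (median 300) at day 0, and control telencephalon had 202 to 236 CPM (median 211) at day 5 and 259 to 295 CPM (median 281) at day 0. The libraries of the 2 days were apart in both control groups and overlapped in both K27M groups. Log2 fold changes were -0.29 ± 0.08 in K27M brainstem and -0.27 ± 0.08 in control brainstem (edgeR, adjusted p = 0.0040 and 0.0055). They were -0.31 ± 0.08 in K27M telencephalon and -0.40 ± 0.08 in control telencephalon (edgeR, adjusted p = 0.0019 and 1.6e-04). In control brainstem the call was lost without culture 41, and in K27M telencephalon likewise, at log2 fold changes of -0.22 and -0.25. The control brainstem call was also lost with DESeq2 on wells and with the region fitted alone, and was made in 11 of 14 alternatives. Nsd1 differed from Nsd2 in its course as well: the mean of 3 cultures was highest at day 1 in all 4 groups, at 331 CPM in K27M brainstem, 320 CPM in control brainstem, 317 CPM in K27M telencephalon and 310 CPM in control telencephalon, although no group passed the test at day 1 against day 0.

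Among the demethylases, Kdm6a rose by day 5 in all 4 groups. Its CPM was 69.7 to 84.4 (median 75.0) at day 5 in K27M brainstem, against 46.3 to 65.3 (median 58.4) at day 0. Control brainstem had 70.0 to 88.0 CPM (median 75.9) at day 5 and 43.8 to 65.4 CPM (median 49.4) at day 0. K27M telencephalon had 69.6 to 88.9 CPM (median 76.7) at day 5 and 50.5 to 61.0 CPM (median 53.8) at day 0. Control telencephalon was the lowest at day 5, with 56.9 to 63.7 CPM (median 59.6) against 40.6 to 56.3 CPM (median 53.1) at day 0. Day 5 and day 0 libraries were apart in every group, in control telencephalon by a narrow margin. The log2 fold change was 0.39 ± 0.09 in K27M brainstem and 0.50 ± 0.09 in control brainstem (edgeR, adjusted p = 5.6e-04 and 2.4e-05). It was 0.46 ± 0.09 in K27M telencephalon and 0.22 ± 0.09 in control telencephalon (edgeR, adjusted p = 7.0e-05 and 0.039). The control telencephalon call was lost without culture 38 (0.19) and without culture 41 (0.16), while the other 3 groups passed whichever culture was left out. It was made in 8 of 14 alternatives. DESeq2 on wells, no filter on low counts, no culture term, and leaving out well 3 of K27M brainstem culture 38 also lost it. The course differed between groups: Kdm6a averaged 59.1, 70.3, 84.0 and 77.3 CPM at days 0, 1, 2 and 5 in K27M brainstem, 55.6, 70.7, 77.8 and 76.3 CPM in K27M telencephalon and 51.6, 66.6, 69.9 and 59.8 CPM in control telencephalon, with the highest mean at day 2. In control brainstem it averaged 53.5, 66.2, 71.0 and 75.3 CPM, with the highest mean at day 5. Whether these courses differed was not tested.

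Kdm6b, the inducible demethylase, rose in 3 of the 4 groups, with larger log2 fold changes and larger standard errors than Kdm6a. In K27M telencephalon it stood at 20.4 to 48.9 CPM (median 38.8) at day 5, against 6.98 to 15.5 CPM (median 12.8) at day 0. In control telencephalon it stood at 26.7 to 42.7 CPM (median 30.0) at day 5, against 5.72 to 14.0 CPM (median 10.7) at day 0. In both telencephalon groups every day 5 library was above every day 0 library. The log2 fold change was 1.56 ± 0.41 in K27M telencephalon and 1.65 ± 0.41 in control telencephalon (edgeR, adjusted p = 0.0014 and 8.3e-04). Brainstem lines were less uniform. K27M brainstem had 11.6 to 44.8 CPM (median 18.7) at day 5 and 7.61 to 61.1 CPM (median 10.3) at day 0, a log2 fold change of 0.21 ± 0.40 that did not pass (edgeR, adjusted p = 0.68). Control brainstem had 18.6 to 53.6 CPM (median 33.6) at day 5 and 8.97 to 25.8 CPM (median 12.6) at day 0, a log2 fold change of 1.13 ± 0.40 (edgeR, adjusted p = 0.016). By culture, the day 5 difference was -0.18 in culture 38, 1.34 in culture 41 and 1.57 in culture 42 of control brainstem, and -0.50, 0.83 and 0.57 in cultures 38, 41 and 42 of K27M brainstem. Culture 38 thus had the opposite sign in both genotypes. Without it the K27M brainstem value was 0.68 and passed (edgeR, adjusted p = 0.042), and without culture 41 or 42 the control brainstem value, 1.04 or 0.75, did not pass. The high day 0 values of K27M brainstem came from culture 38. Its libraries numbered well 3, which are separate wells of different passages that share only this number, held 61.1 CPM at day 0, 91.8 CPM at day 1 and 44.8 CPM at day 5. Leaving out these libraries, an alternative added after seeing the data, gave 0.35 for K27M brainstem (edgeR, adjusted p = 0.41).

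Of the other 3 methyltransferases only Nsd3 passed at day 5 against day 0, and only in control telencephalon. There it stood at 54.7 to 71.3 CPM (median 57.9) at day 5 and 33.1 to 56.0 CPM (median 46.2) at day 0, a log2 fold change of 0.36 ± 0.11 (edgeR, adjusted p = 0.0048), with libraries that overlapped slightly. Its values in the other groups were 0.06 ± 0.11 in K27M brainstem, 0.11 ± 0.11 in control brainstem and 0.16 ± 0.11 in K27M telencephalon, and whether control telencephalon differed from its K27M counterpart was tested as an interaction, which did not pass (-0.20 ± 0.15, edgeR, adjusted p = 0.83). Setd2, the main enzyme of the H3K36 trimethyl mark, had day 5 against day 0 values between -0.05 and 0.11, and Ash1l had values between -0.23 and 0.10, none of which passed. The standard error of each was 0.11. The lowest Ash1l value, in control brainstem, had an adjusted p of 0.058 (edgeR). That value passed in 2 of 14 alternatives, with the effective length offset and with mean passage as a covariate. The mean of Setd2 over 3 cultures was highest at day 2 in all 4 groups, at 154 CPM in K27M brainstem, 162 CPM in control brainstem, 157 CPM in K27M telencephalon and 167 CPM in control telencephalon, and at day 5 it was 127, 143, 123 and 126 CPM in the same order of groups. Whether day 2 differed from other days was not tested.

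**Figure D3:**
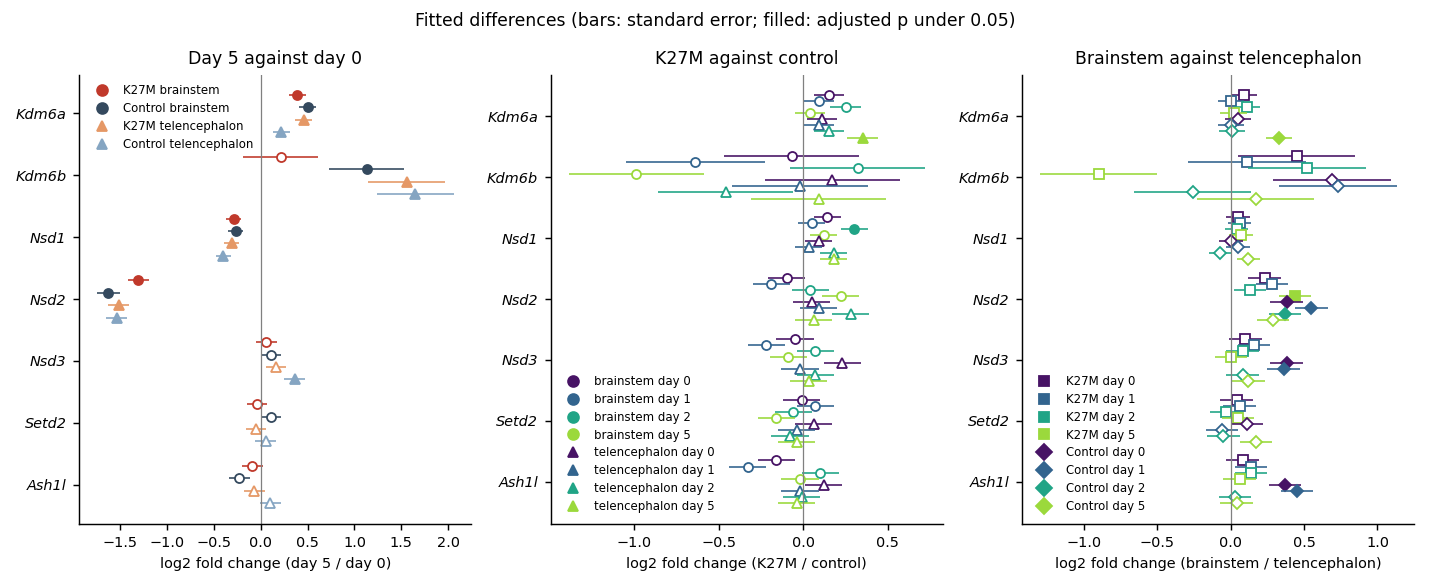
Fitted log2 fold changes (horizontal axes) of the 7 enzymes for day 5 against day 0, K27M against control, and brainstem against telencephalon, with bars for the standard error and filled symbols where the adjusted p was under 0.05. Nsd2 is far to the left in the first panel in all 4 groups, and in the second panel only Nsd1 in brainstem at day 2 and Kdm6a in telencephalon at day 5 are filled.

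Part of the course was already visible after 1 day. At day 1 against day 0, 16.4% of all genes passed in K27M brainstem, 16.2% in control brainstem, 28.3% in K27M telencephalon and 32.8% in control telencephalon. Of the 7 members 0, 3, 2 and 5 passed in these groups in that order. Kdm6a rose by 0.31 ± 0.09 in control brainstem, 0.35 ± 0.09 in K27M telencephalon and 0.37 ± 0.09 in control telencephalon (edgeR, adjusted p = 0.020, 0.0049 and 0.0027), and its value in K27M brainstem was 0.26 ± 0.09 (adjusted p = 0.054). Nsd2 had -0.35 ± 0.11 in K27M telencephalon and -0.39 ± 0.11 in control telencephalon (edgeR, adjusted p = 0.018 and 0.0078). Kdm6b rose by 1.15 ± 0.40 in control brainstem and 1.11 ± 0.41 in control telencephalon (edgeR, adjusted p = 0.048 and 0.035), Nsd3 by 0.34 ± 0.11 and 0.36 ± 0.11 in these groups (adjusted p = 0.029 and 0.010), and Setd2 by 0.29 ± 0.11 in control telencephalon (adjusted p = 0.035). Of these 10 calls, that of Kdm6a in control telencephalon was made without any 1 of the 3 cultures (0.34 without culture 38, 0.46 without culture 41 and 0.34 without culture 42), and each of the other 9 was lost without at least 1 culture, Kdm6b in control brainstem for example at 0.70 without culture 41 and in control telencephalon at 0.55 without culture 38. The members had 5 calls without culture 38, 4 without culture 41 and 6 without culture 42.

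The next question was whether K27M, which acts on the same mark, was accompanied by other levels of the enzymes that oppose PRC2. In brainstem 1.32% of all genes passed at day 0, 4.37% at day 1, 3.79% at day 2 and 11.5% at day 5 (K27M against control), and 0, 0, 1 and 0 of the 7 members did. In telencephalon the shares of all genes were 0.335%, 4.41%, 4.60% and 1.99% at days 0, 1, 2 and 5, and 0, 0, 0 and 1 of the 7 members passed. The member in brainstem was Nsd1 at day 2, with 284 to 344 CPM (median 297.5) in K27M libraries and 239 to 273 CPM (median 246) in control libraries. The libraries did not overlap, and the log2 fold change was 0.30 ± 0.08, with 0.39, 0.25 and 0.25 in cultures 38, 41 and 42 (edgeR, adjusted p = 0.043). The call was lost when any one of the 3 cultures was left out (0.27 without culture 38, 0.32 without culture 41 and 0.32 without culture 42). It was made in 5 of 14 alternatives, and was also lost with mean passage as a covariate (0.30, adjusted p = 0.058), with DESeq2 on wells (0.28, adjusted p = 0.14) and without the libraries of well 3 of culture 38 (0.26, adjusted p = 0.069). With the passage covariate Kdm6a passed in brainstem at day 2 instead, at 0.32 (edgeR, adjusted p = 0.040), against 0.25 (adjusted p = 0.14) without it.

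The member in telencephalon was Kdm6a at day 5, with 69.6 to 88.9 CPM (median 76.7) in K27M libraries and 56.9 to 63.7 CPM (median 59.6) in control libraries. Again the libraries did not overlap. The log2 fold change was 0.35 ± 0.09, with 0.34, 0.30 and 0.41 in cultures 38, 41 and 42 (edgeR, adjusted p = 0.038), and this call too was lost when any one culture was left out (0.36 without culture 38, 0.38 without culture 41 and 0.33 without culture 42). It was made in 7 of 14 alternatives.

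Kdm6a is X-linked and known to escape X inactivation, while its copy Uty lies on chromosome Y, and the labels give no sex for the pooled litters. Summed CPM of the Y-linked genes Uty, Ddx3y, Eif2s3y and Kdm5d averaged 93.2, 66.5 and 0.0167 in K27M telencephalon lines 38, 41 and 42, against 158, 222 and 64.8 in the control telencephalon lines of the same numbers. Each K27M telencephalon line thus held fewer Y-linked transcripts than its control, and Xist, the RNA of the inactive X, averaged 348.7, 392.1 and 463.8 CPM in the K27M lines, against 216, 113 and 230 CPM in the control lines. Y-linked transcripts were also lower in K27M brainstem lines 38, 41 and 42 (69.0, 113 and 1.16 CPM) than in their controls (192, 138 and 22.5 CPM). Xist averaged 837, 213 and 413 CPM in these K27M brainstem lines, against 313, 360 and 650 CPM in their controls. In brainstem Kdm6a had a log2 fold change of 0.04 at day 5 (K27M against control), which did not pass. At day 5 the 4 Y-linked genes had log2 fold changes of -2.22 to -2.40 in K27M against control telencephalon, with standard errors of 1.19 to 1.28, and none passed. The X-linked genes Kdm5c and Eif2s3x, which also escape X inactivation, had 0.22 ± 0.09 and 0.26 ± 0.09 in that comparison (edgeR, adjusted p = 0.25 and 0.14). Ddx3x, the other such X-linked gene listed, did not rise there (-0.02 ± 0.17, adjusted p = 0.99). Over all 12 lines, Kdm6a averaged 75.2, 72.0 and 75.0 CPM in the lines with the fewest Y-linked transcripts (K27M telencephalon 42, K27M brainstem 42 and control brainstem 42) and 61.4 and 58.2 CPM in the lines with the most (control brainstem 38 and control telencephalon 41). K27M brainstem line 38, at 69.0 CPM of Y-linked transcripts, had the highest Kdm6a of all (76.8 CPM). The part of sex in the Kdm6a differences was not tested. Reads of Kdm6a and Uty are alike in part of their length, and a share may have been assigned to the wrong copy.

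**Figure D4:**
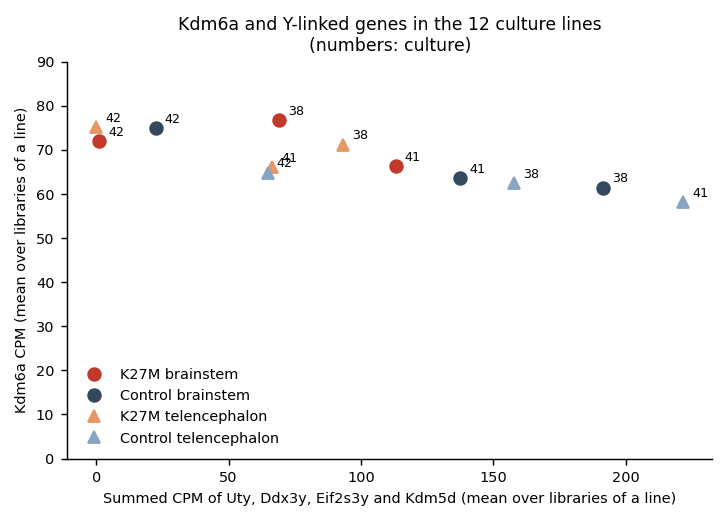
Mean Kdm6a CPM (vertical axis, from 0) against the summed CPM of 4 Y-linked genes (horizontal axis) in the 12 culture lines, each averaged over its libraries and marked with its culture number. The 3 lines of culture 42 nearest to 0 on the horizontal axis lie at 72.0 to 75.2 CPM, and the 2 lines farthest right at 61.4 and 58.2 CPM.

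Most member values of K27M against control were small. Of the 56 differences, 54 did not pass, and outside Kdm6b they lay between -0.33 and 0.28, with standard errors of 0.08 to 0.11. The largest of those that did not pass belonged to Kdm6b in brainstem. At day 5 it had 11.6 to 44.8 CPM (median 18.7) in K27M and 18.6 to 53.6 CPM (median 33.6) in control libraries, a log2 fold change of -0.99 ± 0.40 (edgeR, adjusted p = 0.11), with 0.30, -0.74 and -1.90 in cultures 38, 41 and 42. At day 1 it was -0.64 ± 0.41 (adjusted p = 0.39), with 0.95, -1.42 and -1.35 in the same cultures. Culture 38 went the other way at both days, and without it the values were -1.41 at day 5 and -1.39 at day 1, which passed (edgeR, adjusted p = 0.0017 and 0.0060). When each well was counted as a sample the day 5 difference passed at -1.01 (adjusted p = 9.9e-04), and without well 3 of culture 38 at -1.09 (adjusted p = 0.041). Wells of a line share their cells, so the p-value on wells does not measure the spread between cultures. Without culture 41 or 42 the day 5 difference was -1.12 or -0.37 and did not pass. Ash1l at day 1 in brainstem also passed without culture 38, at -0.33 ± 0.11 (adjusted p = 0.064) with all cultures and -0.49 (adjusted p = 0.0098) without culture 38. For Nsd2 no genotype difference passed at any day, with values between -0.19 and 0.28.

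Whether differentiation itself was altered by K27M was tested as the difference between the day 5 against day 0 changes of both genotypes. Of all genes, 0.543% passed in brainstem and 0.104% in telencephalon, and 0 of 14 member values did (edgeR, 0 also at an unadjusted p under 0.05, and 0 with DESeq2). For Nsd2 in brainstem the value was 0.32 ± 0.16 (adjusted p = 0.44), the smaller fall being in K27M, and for Kdm6b in brainstem it was -0.92 ± 0.56 (adjusted p = 0.54). Whether the K27M effect differed between the regions was tested at each day, with 0.00435%, 9.18%, 0.922% and 4.81% of all genes passing at days 0, 1, 2 and 5, and 0 of 28 member values passed (edgeR, 2 at an unadjusted p under 0.05, and 2 with DESeq2 on wells). Those at an unadjusted p under 0.05 were Kdm6a at day 5 (-0.31 ± 0.13, adjusted p = 0.16) and Ash1l at day 1 (-0.31 ± 0.15, adjusted p = 0.19). With DESeq2 Kdm6a (-0.41) and Kdm6b (-1.14) passed at day 5, where Kdm6b had -1.08 ± 0.57 in edgeR (adjusted p = 0.29). Without culture 38, 3 values passed in edgeR, Kdm6b at day 1 (-1.60) and day 5 (-1.66) and Ash1l at day 1 (-0.61).

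Between regions, the control lines differed in 4 members and always with brainstem higher. Of all genes 10.9% passed at day 0, 27.9% at day 1, 10.3% at day 2 and 14.7% at day 5 (control brainstem against control telencephalon), and of the members 3, 3, 1 and 1. Nsd2 had 350 to 476 CPM (median 381) in control brainstem and 259 to 325 CPM (median 306) in control telencephalon at day 0, with no overlap between libraries. Its log2 fold change was 0.38 ± 0.11 at day 0, 0.55 ± 0.11 at day 1 and 0.37 ± 0.11 at day 2 (edgeR, adjusted p = 0.026, 5.4e-04 and 0.033), and 0.29 ± 0.11 at day 5 (adjusted p = 0.085). All 3 calls were lost without culture 38, at 0.25, 0.39 and 0.23, that of day 0 also without culture 41 or 42 (0.44 and 0.41), and that of day 2 also without culture 42 (0.39). Cycling genes passed with higher levels in control brainstem for 0, 7, 7 and 5 of 16 at days 0, 1, 2 and 5, and none was lower. Their median log2 fold change was 0.18 at day 0, 0.78 at day 1 and 1.21 at day 2. Of the 7 astrocyte genes 3, 3, 5 and 3 were lower in control brainstem at these days and none higher, with medians of -3.22, -3.44, -5.32 and -2.43. The part of these genes' cells in the member differences was not tested.

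Nsd3 and Ash1l were higher in control brainstem at the first days. Nsd3 had log2 fold changes of 0.38 ± 0.11 at day 0 and 0.36 ± 0.11 at day 1 (edgeR, adjusted p = 0.021 and 0.013), and Ash1l of 0.37 ± 0.11 and 0.45 ± 0.11 (edgeR, adjusted p = 0.023 and 0.0019). At day 1 Ash1l stood at 95.7 to 188 CPM (median 128) in control brainstem and 82.1 to 138 CPM (median 101) in control telencephalon, so that the libraries overlapped. At days 2 and 5 both genes were within 0.12 of equal. Kdm6a was higher in control brainstem at day 5 only among the days tested, by 0.33 ± 0.09 (edgeR, adjusted p = 0.015), with 70.0 to 88.0 CPM (median 75.9) against 56.9 to 63.7 CPM (median 59.6) in control telencephalon and no overlap. Y-linked transcripts averaged 192, 138 and 22.5 CPM in control brainstem lines 38, 41 and 42, against 158, 222 and 64.8 CPM in control telencephalon lines. Xist averaged 313, 360 and 650 CPM in these control brainstem lines, against 216, 113 and 230 CPM in the control telencephalon lines. It was higher in each brainstem line than in the telencephalon line of that number. Its difference at day 5 did not pass (edgeR, adjusted p = 0.057). The Y-linked genes did not pass there either, with log2 fold changes of -0.01 (Uty), -0.16 (Kdm5d), -0.21 (Eif2s3y) and -0.38 (Ddx3y). Their standard errors were at least 1.12. Of the X-linked genes listed, Eif2s3x had 0.22 ± 0.09, Kdm5c -0.05 ± 0.09 and Ddx3x -0.37 ± 0.17 (edgeR, adjusted p = 0.11, 0.78 and 0.15). The part of sex in this Kdm6a difference was not tested. The calls of Nsd3, Ash1l and Kdm6a between regions were lost without culture 42, at 0.36 and 0.26 for Nsd3 at days 0 and 1, 0.36 and 0.31 for Ash1l, and 0.26 for Kdm6a. All but that of Nsd3 at day 0 were also lost without culture 41, and those of Nsd3 (0.19) and Ash1l (0.25) at day 0 without culture 38. With mean passage as a covariate, of the 8 regional calls only that of Nsd2 at day 1 was made (0.48, adjusted p = 0.029). Without the term for culture in the fit, only those of Nsd2 and Ash1l at day 1 were made.

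Between the regions in K27M lines, 3.84%, 5.58%, 3.27% and 8.84% of all genes passed at days 0, 1, 2 and 5 (K27M brainstem against K27M telencephalon), and 0, 0, 0 and 1 of the 7 members. The one that passed was Nsd2 at day 5, with 139 to 171 CPM (median 152) in K27M brainstem and 105 to 126 CPM (median 113) in K27M telencephalon and no overlap, a log2 fold change of 0.44 ± 0.11 (edgeR, adjusted p = 0.012). It did not pass without culture 38 (0.37) or 41 (0.43), or without the term for culture in the fit. Kdm6b in the same comparison was -0.90 ± 0.40 (adjusted p = 0.17), and -1.41 without culture 38, which passed (adjusted p = 0.0060).

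Differentiation could also shift which transcript of a gene is used. Kdm6b was mostly its coding transcript Kdm6b-201, with a mean share of 70.1% to 85.1% of the gene's TPM by group, Setd2 mostly Setd2-201, with 64.9% to 72.1%, and Ash1l mostly Ash1l-202, with 55.4% to 70.3%. The other genes were split among several transcripts, Nsd1 with Nsd1-201 at 35.7% on average, Nsd2 with the short Nsd2-211 at 26.1%, Nsd3 with Nsd3-206 at 22.0% and Nsd3-203 at 21.9%, and Kdm6a with Kdm6a-208 at 21.2%. Of all transcripts, 1.48% passed a test of changed usage, a transcript's change relative to its gene, so that a large change of 1 transcript can also make the others of that gene pass, at day 5 against day 0 in K27M brainstem, 2.04% in control brainstem, 2.28% in K27M telencephalon and 2.20% in control telencephalon (edgeR, adjusted p under 0.05), and 1, 1, 1 and 2 member transcripts did. All were transcripts with a mean share under 10%. Setd2-203, marked for nonsense-mediated decay, fell in usage by 2.39 on the log2 scale in K27M brainstem and by 2.38 in control brainstem and rose by 2.53 in K27M telencephalon, where its share was only 0.10% at day 5 and 0.02% at day 0. In control telencephalon Nsd2-202 and Nsd2-209 were the others, both with a share of 0.0% at day 5, against 0.66% and 0.42% at day 0. With transcripts of at least 100 counts on average, 1 call was made in place of 5. Nsd3-203 had shares of 19.7% at day 5 and 26.0% at day 0 in K27M brainstem, 18.3% and 25.5% in control brainstem, 18.0% and 27.5% in K27M telencephalon and 17.9% and 26.9% in control telencephalon, lower at day 5 each time, and its usage did not pass the test (log2 changes of -0.37, -0.39, -0.46 and -0.41 in the same order, with adjusted p of 1, 0.84, 0.55 and 0.69).

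The genes whose level followed each member most closely over the 48 sums were named by Pearson correlation of log2 CPM among 10379 protein-coding genes, as a description. For Nsd2 these were Rbbp8, which codes for the DNA end resection factor CtIP, Phtf2 and Neto1 (0.98, 0.98 and 0.97). For Kdm6b they were the H3K4 methyltransferase genes Setd1b and Kmt2d and the BAF subunit gene Bicra (0.95, 0.95 and 0.94), and for Nsd3 they were the H3K4 methyltransferase gene Kmt2c with Synj1 and Proser1 (0.89, 0.88 and 0.87). Ash1l was closest to Ylpm1, the cyclin K gene Ccnk and the Ras activator gene Sos1 (0.91, 0.91 and 0.90), Nsd1 to Sestd1, Mex3a and Tab3 (0.87 each) and Setd2 to Pag1, Wipf1 and Smap1 (0.85 each). Kdm6a had the weakest partners, Igsf3, Pcdhb15 and Shtn1 (0.81, 0.80 and 0.80). Among the members themselves the closest pairs were Kdm6b with Nsd3 (0.75), Nsd1 with Nsd2 (0.72) and Nsd3 with Ash1l (0.71), and Kdm6a with Nsd2 were the most opposed (-0.48).

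Listed partners of these enzymes moved in both directions at day 5. Of all genes, 30.0% rose and 25.1% fell in K27M brainstem, 33.5% and 28.5% in control brainstem, 33.6% and 27.6% in K27M telencephalon and 33.0% and 27.1% in control telencephalon, and the counts of these short lists stand beside those shares as a description. The list for KDM6A holds 9 subunits of the KMT2C and KMT2D complexes. In K27M brainstem 0 rose and 4 fell, in control brainstem 0 rose and 4 fell, in K27M telencephalon 1 rose and 5 fell, and in control telencephalon 2 rose and 4 fell, with medians of -0.25, -0.39, -0.42 and -0.17 beside medians over all genes of 0.07, 0.09, 0.10 and 0.12 in the same order. Wdr5, a scaffold subunit, fell by 1.07 ± 0.12 in K27M brainstem and by 1.27 ± 0.12 in control brainstem, while Kmt2d rose by 1.27 ± 0.39 in K27M telencephalon and 1.31 ± 0.39 in control telencephalon (edgeR, adjusted p = 6.7e-09, 1.4e-10, 0.0057 and 0.0044). With 4 to 6 of 9 genes passing, against 55.1% to 62.0% of all genes, the number of calls is no result about the complex. Of 5 listed partners of SETD2 and ASH1L, Iws1, which couples SETD2 to the elongating polymerase, fell by 0.74 ± 0.07 in K27M brainstem and by 0.91 ± 0.07 in control brainstem (edgeR, adjusted p = 1.3e-09 and 1.2e-11), and Supt6, its partner in elongation, rose by 0.41 ± 0.09 and 0.38 ± 0.09 (adjusted p = 2.6e-04 and 5.2e-04).

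On the side that removes H3K36 methylation, 3 of 6 listed demethylase genes rose and 1 fell in K27M brainstem, in control brainstem and in K27M telencephalon, and 3 rose and 2 fell in control telencephalon. Kdm4d rose by 3.18 ± 0.34 in K27M brainstem and 2.74 ± 0.33 in control brainstem, and Kdm2b had -1.35 ± 0.10 in K27M telencephalon and -1.35 ± 0.10 in control telencephalon (edgeR, adjusted p = 3.7e-09, 2.4e-08, 1.8e-12 and 1.6e-12). With 6 genes, the number of calls is no result about this list either. Of 11 genes for readers of H3K36 methylation 1 rose and 8 fell in K27M brainstem and in control brainstem, 1 rose and 9 fell in K27M telencephalon and 1 rose and 8 fell in control telencephalon, with medians of -0.54, -0.67, -0.76 and -0.40 in the same order. Those that fell included Phf19, a PRC2-associated Tudor protein, at -1.29 ± 0.30 in K27M brainstem and -2.18 ± 0.31 in control brainstem (edgeR, adjusted p = 4.5e-04 and 3.2e-07). In PRC2 itself, the catalytic subunit gene Ezh1 rose by 1.61 ± 0.14 in K27M brainstem and 1.78 ± 0.14 in control brainstem (edgeR, adjusted p = 9.3e-11 and 5.1e-12). The other, Ezh2, had -1.03 ± 0.11 in control brainstem and -1.20 ± 0.11 in control telencephalon (adjusted p = 2.3e-09 and 9.9e-11). In K27M against control, none of the 4 PRC2 core genes passed in either region at any of the 4 days. In that comparison, genes of the partner, demethylase and reader lists did pass (edgeR). In brainstem Dnmt3a had -0.46 ± 0.13 at day 2. At day 5 Kdm4b had -0.60 ± 0.10, Phf19 0.95 ± 0.30 and Rbbp5 -0.24 ± 0.08. In telencephalon Glyr1 had -0.21 ± 0.06 at day 1. At day 2 Dnmt3a had -0.47 ± 0.13, Kdm2b 0.34 ± 0.10 and Iws1 0.28 ± 0.07. Of all genes, 3.79% and 11.5% passed in brainstem at days 2 and 5, and 4.41% and 4.60% in telencephalon at days 1 and 2.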

How the data were processed

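The 142 libraries were total RNA sequencing of cultured OPCs. The authors quantified transcripts with Salmon 1.10.1 (per the submitters' processing notes), and the deposited estimated counts and TPM per transcript were used, with the deposited effective lengths in one alternative. Transcripts were assigned to genes by GENCODE M21 (139821 of 141084 transcripts), and 0.252% to 0.377% of a library's counts had no match. Estimated counts were summed per gene, rounded, summed over the wells of a line and day to 48 units, scaled by TMM and filtered by edgeR's filterByExpr (23003 genes). The edgeR 4.0.16 quasi-likelihood test (R 4.3.3) had a term for each group and for culture within region, because the study's model included culture. Genes with a Benjamini-Hochberg adjusted p under 0.05 within a comparison passed, in 30 comparisons. Usage of transcripts was tested with edgeR over 69359 transcripts. The errors given are standard errors from the gene-level fit, with a spread estimated over all 16 groups. Each is the absolute log2 fold change divided by the square root of its F value. The culture term removes what lines of the same number in a region share, so p-values measure the remaining spread between cultures. Comparisons between regions thus leave out part of the spread between cultures. Without this term 2 regional calls were made in control lines, against 8 with it, and 0 against 1 in K27M lines.

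Cultures of one number were checked for pairing. Deviations from group means of lines with the same culture number correlated at -0.28 to 0.63 in brainstem (median 0.29) and 0.09 to 0.78 in telencephalon (median 0.21), with 10 of 12 pairs over 0.1 in each. DESeq2 1.42.0 on wells served as an alternative, with those named in the closing section. The tests were tried on simulated data. The 7 members and all gene lists were chosen with earlier results of these data known. All members were named in every comparison. Of each list up to 3 passing genes with the largest difference were eligible, and for each member the 3 genes most alike over units with a mean of at least 5 CPM. Plots were drawn with matplotlib 3.10.9.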

Additional observations from a re-analysis of the deposited data

Results flagged for a closer look

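In 14 of 112 sets of 8 or 9 libraries, each a member in a group, 1 library stood further from the rest than Dixon's 95% critical value allows, a rule that chance meets in about 1 of 20 sets. Libraries numbered well 3 of K27M brainstem culture 38, separate wells that share only this number, were the high ones for Kdm6b at day 0 (61.05 CPM, the next 24.33), day 1 (91.81 CPM, the next 41.84) and day 5 (44.79 CPM, the next 20.35). That of day 5 was also high for Nsd1 (326.7 CPM), Nsd3 (88.74 CPM) and Ash1l (168.2 CPM). Well 2 of that culture was high at day 2 for Nsd1 (344.1 CPM) and Ash1l (137.8 CPM). In control brainstem, well 3 of culture 42 was high for Nsd1 at day 0 (306.2 CPM) and well 3 of culture 38 for Ash1l at day 2 (122.2 CPM). In control telencephalon, well 3 of culture 42 was high for Kdm6b at day 2 (50.96 CPM) and Ash1l at day 5 (120.4 CPM), and well 2 of that culture was low at day 2 for Nsd2 (126.8 CPM) and Setd2 (118.1 CPM).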

How the results depend on the processing

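Of 210 differences of a member, 37 passed, and 13 of these passed under every alternative run: Nsd2 at day 5 in all 4 groups, Kdm6a, Kdm6b, Nsd1 and Nsd3 at day 5 in 8 cases and Kdm6a at day 1 in control telencephalon. The 16 calls at day 5 against day 0 stayed within 1.5 times. Counting wells as samples gave 19 calls at day 1 against day 0 (10 with cultures), 7 and 6 for K27M against control in brainstem and telencephalon (1 and 1), 13 and 4 for brainstem against telencephalon in control and K27M lines (8 and 1), 4 for the regional difference of the K27M effect (0) and 3 for the K27M change of differentiation (0). Wells with a well number as replicate block gave 20, 7, 6, 13, 4, 4 and 3 in that order. Without the culture as replicate block the first 5 of these counts were 4, 0, 0, 2 and 0. Without the filter on low counts they were 5, 0, 0 and 4 for the first 4. The effective length offset gave 0 for K27M in telencephalon and 5 between regions in controls, each region fitted alone gave 0 for K27M in brainstem, and DESeq2 gave 2 between regions in K27M lines and 2 for the regional difference. Passage as a covariate gave 1 and 2 between regions in control and K27M lines. Leaving out 1 culture gave 4 to 6 calls at day 1, 0 to 3 and 0 to 0 for K27M in brainstem and telencephalon, 1 to 5 and 0 to 1 between regions in control and K27M lines, 0 to 3 for the regional difference, and 3 to 4 usage calls (5 with all cultures), and the stricter transcript filter gave 1. Without well 3 of K27M brainstem culture 38, chosen after seeing the data, there were 2 and 0 calls for K27M in brainstem and telencephalon. Among the differences that passed in some fit, the sign turned for Kdm6b at day 5 against day 0 in K27M brainstem, which ran between -0.09 without culture 41 and 0.68 without culture 38, and with passage for Kdm6b between regions in controls at day 1 (-0.01) and Setd2 at day 5 (-0.08). Of the 130 that passed in none, 66 turned sign in at least 1 alternative. The cause of these changes was not tested. Comparisons across regions could not be fitted with a region alone. With 3 cultures in a group, small differences may be missed.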
